A study of Mus musculus with 8 samples.

Results

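Immunoglobulin variable segment genes were followed in liver RNA of 8 mice. They were taken from a raw count table as the genes whose symbol starts with Ighv, Igkv or Iglv and a number and whose counts summed to at least 20 over the 8 libraries. This rule kept 16 of 348 variable segment genes, in a table of 55487 genes: 12 at the kappa locus, 3 at the heavy chain locus and 1 at the lambda locus. The members were thus chosen by their summed counts over all 8 libraries, and that sum is given as a description only. The study concerns NF-kB activation by endogenous DNA damage, and 3 genotypes were sequenced, with 1 library per mouse. NemoDK_Ercc1 mice (n = 2) combined the Ercc1-/D genotype, a null and a hypomorphic allele in all tissues, with a Nemo allele labelled NEMO DK, a term the labels leave unexplained. Both were 11.8 weeks old. Ercc1 mice (n = 2) had the same Ercc1 genotype and were 15.1 and 13.7 weeks old. WT mice (n = 4) were 10.7, 12.3, 11.1 and 11.8 weeks old. The Ercc1 mice were the oldest, so genotype and age cannot be fully told apart. ERCC1 is part of an endonuclease that acts in DNA repair, and NEMO is needed by the kinase complex that switches on NF-kB. The labels do not state strain or any infection or immunization.

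A mature B cell builds each antibody chain by joining 1 variable segment to shorter segments, and the joined exon is spliced to a constant region. The heavy chain, the kappa light chain and the lambda light chain are encoded at separate loci, each with many germline variable segments. A cell normally expresses 1 heavy and 1 light chain, so the mixture of segments in a tissue reflects which clones of B cells and antibody-secreting plasma cells are present and how much antibody RNA each makes. A healthy liver holds few such cells, next to hepatocytes, macrophages and endothelial cells. Naive B cells carry IgM and IgD, and cells that have switched class carry IgG, IgA or IgE.

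The libraries held 21.6 to 27.8 M counts, with totals of 27.7 and 21.6 M in NemoDK_Ercc1, 24.8 and 26.9 M in Ercc1, and 23.2, 22.2, 24.6 and 27.8 M in WT. Hepatocyte markers (7 measured genes, Alb and Ttr among them) summed to 85162 and 85905 CPM in NemoDK_Ercc1, 86430 and 85420 CPM in Ercc1 and 113115 to 137567 CPM in WT. WT library 3 held 0 Xist counts and 3087 counts of Y-linked genes although all mice are labelled female, and no other library held more than 10 Y-linked counts. It was kept in the WT group and results are also given without it. CPM are counts scaled to a common library size with TMM factors, and fold changes are log2 values ± standard error.

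The 16 genes are functional germline segments in the annotation, and all 16 carry the biotype of an immunoglobulin V gene. The 12 kappa genes lie on chromosome 6 of GRCm38, 5 on the plus and 7 on the minus strand, the 3 heavy chain genes lie on the minus strand of chromosome 12, and Iglv1 lies on the minus strand of chromosome 16. In the first annotated transcript, 14 of the 16 have 2 exons, a leader exon and the variable exon. Igkv8-28 and Igkv5-39 have 1 exon there, of 305 and 287 bases in longer genes, and exons of other transcripts were not counted. No member has an exon that overlaps an exon of another gene. Iglv1 lies in an intron of 2010309G21Rik on the opposite strand, which had 0 to 2 counts per library. The coding part of the variable exon, at most its last 300 bases, is shown for the segments the results turn on, since several are close copies of each other and the counting could divide reads between them. Igkv1-110 (chr6:68270968-68271267, plus strand), the segment with the most counts, is set beside 2 further members of its family. Capitals in Igkv1-117 (chr6:68121528-68121827, plus strand) and Igkv1-135 (chr6:67610209-67610508, plus strand) mark bases that differ from Igkv1-110. Sequences are from the GENCODE M21 transcripts on GRCm38, 5′ to 3′.
Igkv1-110: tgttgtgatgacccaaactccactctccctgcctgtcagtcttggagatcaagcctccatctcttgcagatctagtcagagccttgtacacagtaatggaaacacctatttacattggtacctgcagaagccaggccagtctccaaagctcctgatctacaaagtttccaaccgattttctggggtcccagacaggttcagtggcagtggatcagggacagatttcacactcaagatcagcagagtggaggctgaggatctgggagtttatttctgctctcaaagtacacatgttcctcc
Igkv1-117: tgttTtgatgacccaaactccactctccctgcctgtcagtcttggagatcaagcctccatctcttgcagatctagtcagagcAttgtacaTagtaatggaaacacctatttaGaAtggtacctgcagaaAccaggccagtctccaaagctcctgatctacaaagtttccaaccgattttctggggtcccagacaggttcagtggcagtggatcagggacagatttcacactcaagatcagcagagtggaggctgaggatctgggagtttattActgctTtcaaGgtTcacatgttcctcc
Igkv1-135: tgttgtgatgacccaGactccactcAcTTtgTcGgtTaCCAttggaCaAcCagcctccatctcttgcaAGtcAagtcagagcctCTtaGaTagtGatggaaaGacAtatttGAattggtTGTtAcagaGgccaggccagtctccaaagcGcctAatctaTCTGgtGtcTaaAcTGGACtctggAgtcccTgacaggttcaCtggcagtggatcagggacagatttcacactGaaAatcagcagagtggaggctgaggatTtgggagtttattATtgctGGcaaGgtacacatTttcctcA
Over the whole 313 bases Igkv1-117 differs from Igkv1-110 at 10 (96.8% identity), all of them in the stretch shown, and Igkv1-135 at 62 (80.2% identity), 57 of them in the stretch shown.

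A second pair is Igkv6-23 (chr6:70260409-70260706, minus strand), which had no counts in WT livers, and Igkv6-15 (chr6:70406469-70406766, minus strand), which was seen in every library. Capitals in Igkv6-15 mark the bases that differ from Igkv6-23. They number 16 of 298 (94.6% identity).
Igkv6-23: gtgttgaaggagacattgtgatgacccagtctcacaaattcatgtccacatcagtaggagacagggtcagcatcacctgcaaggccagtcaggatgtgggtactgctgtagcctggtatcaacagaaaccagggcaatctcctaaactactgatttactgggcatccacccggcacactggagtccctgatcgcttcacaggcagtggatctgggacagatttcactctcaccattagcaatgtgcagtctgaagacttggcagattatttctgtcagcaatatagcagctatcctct
Igkv6-15: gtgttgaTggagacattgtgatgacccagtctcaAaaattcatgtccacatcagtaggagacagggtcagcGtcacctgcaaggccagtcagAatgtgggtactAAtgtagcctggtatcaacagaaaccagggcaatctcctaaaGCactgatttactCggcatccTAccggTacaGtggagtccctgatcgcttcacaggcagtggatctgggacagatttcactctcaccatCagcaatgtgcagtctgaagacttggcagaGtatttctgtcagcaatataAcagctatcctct
Ighv1-81 (chr12:115920279-115920578, minus strand) is the heavy chain segment with the most counts and is shown alone, so it holds no capitals.
Ighv1-81: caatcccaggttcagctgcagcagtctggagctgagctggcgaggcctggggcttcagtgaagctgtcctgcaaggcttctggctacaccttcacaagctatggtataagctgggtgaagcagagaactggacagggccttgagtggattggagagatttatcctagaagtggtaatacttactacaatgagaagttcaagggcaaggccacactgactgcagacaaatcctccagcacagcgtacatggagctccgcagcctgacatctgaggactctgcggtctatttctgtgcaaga
The share of a transcript's 50-base windows found in no transcript of any other gene was 49.1% for Igkv1-110, 50.1% for Igkv1-117, 64.4% for Igkv6-23 and 88.4% for Ighv1-81. Its median over the 16 members was 76.1%, and for 100-base windows 99.3%. The closest copy of any member was that of Igkv5-43, which is 99.0% identical to Igkv5-45. Read length and the handling of reads with several alignments are not given in the sources used here, so values of single segments are less certain than sums over segments.

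Variable segment RNA was a small part of every library and was higher in 3 of the 4 mutant livers than in any WT liver by a wide margin, with the fourth close to WT. Over all 348 genes the libraries held 302 and 320 counts in NemoDK_Ercc1, 110 and 445 in Ercc1, and 74, 48, 48 and 80 in WT. As CPM these were 9.92 and 13.5 in NemoDK_Ercc1, 4.03 and 15.1 in Ercc1, and 3.58, 2.42, 2.09 and 3.09 in WT. Every mutant library lay above every WT library, but Ercc1 library 1 lay just above WT library 1. The group means were 11.7 ± 2.56 CPM in NemoDK_Ercc1 (SD, n = 2), 9.56 ± 7.82 CPM in Ercc1 (SD, n = 2) and 2.80 ± 0.67 CPM in WT (SD, n = 4), and the SD of Ercc1 was nearly as large as its mean. In bulk RNA, more B cells or plasma cells and more antibody RNA per cell cannot be told apart.

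The 16 members took 688 of the 1427 variable segment counts (48.2%). They summed to 5.32 and 7.62 CPM in NemoDK_Ercc1, 1.5 and 7.12 CPM in Ercc1, and 1.21, 0.604, 0.873 and 1.47 CPM in WT. The log2 ratio of group means was 2.64 for NemoDK_Ercc1 against WT, 2.05 for Ercc1 against WT and 0.59 for NemoDK_Ercc1 against Ercc1. Without Ercc1 library 2 the second of these was 0.53 and the third 2.11, so the level of the Ercc1 group rests on that library. The members were chosen with their counts known, and no test was made on the sum.

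**Figure D1:**
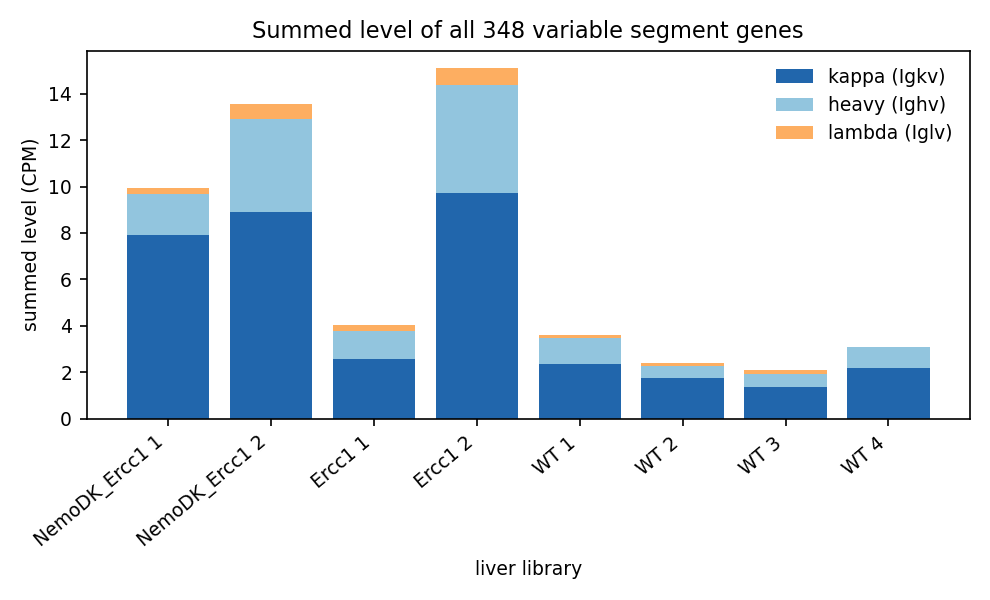
Stacked bars give the summed level in CPM of all 348 variable segment genes in each liver library, split into kappa, heavy and lambda segments. Ercc1 library 1 (4.03 CPM) lies near the WT libraries (2.09 to 3.58 CPM), and the other 3 mutant libraries reach 9.92 to 15.1 CPM.

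Kappa segments were the larger class in every library. They held 79.8% and 65.6% of the variable segment counts in NemoDK_Ercc1, 63.6% and 64.5% in Ercc1, and 66.2%, 72.9%, 64.6% and 71.3% in WT. Heavy chain segments held 17.5% and 29.7% in NemoDK_Ercc1, 30% and 30.8% in Ercc1, and 31.1%, 20.8%, 27.1% and 28.8% in WT. The 95% Clopper-Pearson interval of the heavy chain share was 13.4% to 22.3% in NemoDK_Ercc1 library 1 and 24.7% to 35.0% in NemoDK_Ercc1 library 2, and these 2 intervals did not overlap. All intervals cover counting error only and treat reads as separate molecules, since PCR copies were not marked. Lambda segments gave 8 and 15 counts in NemoDK_Ercc1, 7 and 21 in Ercc1, and 2, 3, 4 and 0 in WT.

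Nearly all counts fell on segments annotated as functional: 216 such genes held 1422 counts (99.6%). The 130 annotated pseudogenes held 5 counts, with none above 1 in any of the 5 that were seen. By family, Igkv1 held 283 counts (19.8% of the total), of which 79 and 55 lay in NemoDK_Ercc1, 17 and 89 in Ercc1 and 7, 6, 10 and 20 in WT. The Ighv1 family held 235 counts (16.5%) over 40 seen genes, but only Ighv1-81 of its 93 genes reached 20 counts. At the heavy chain locus 387 counts fell on 72 seen genes, of which 3 are members. At the kappa locus 980 counts fell on 76 seen genes, of which 12 are members. The loci were not compared at equal counts.

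**Figure D2:**
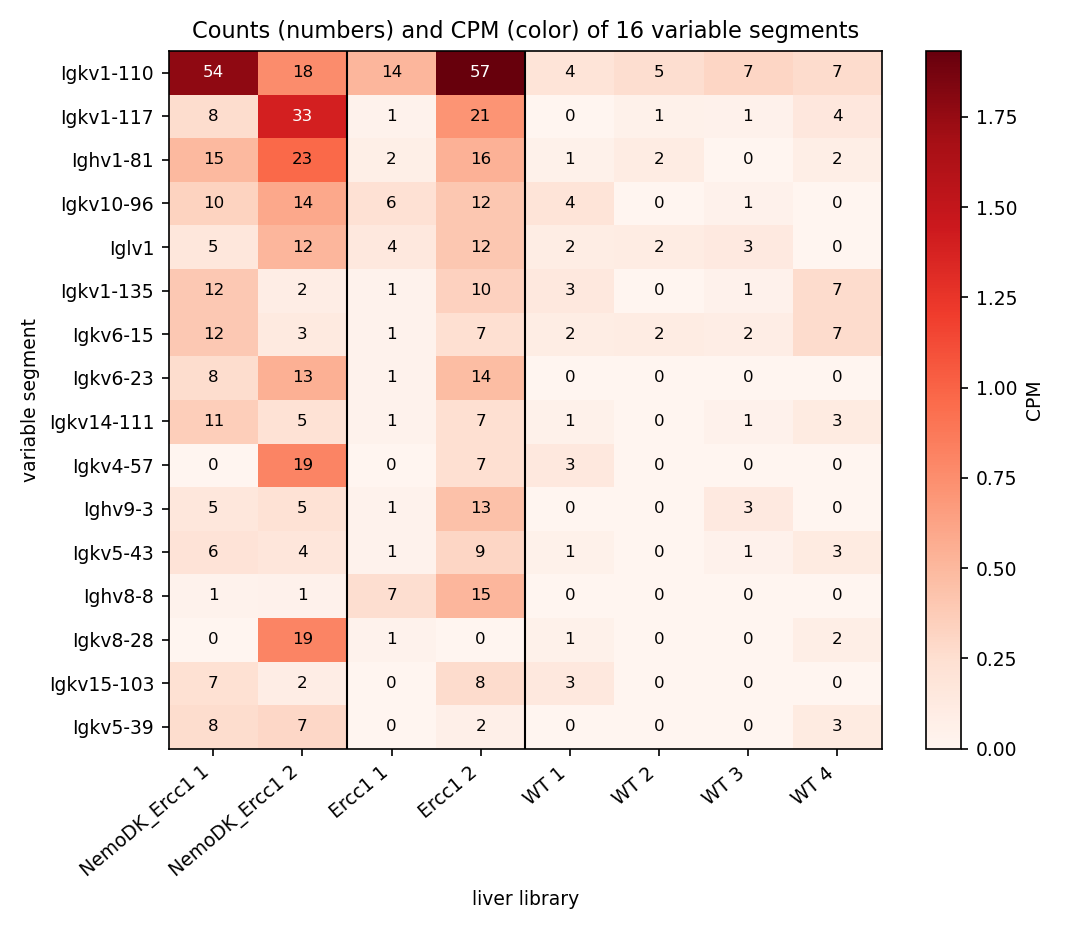
Each cell gives the raw count of a variable segment (down the page) in a liver library (across), and its color the CPM. Igkv1-110 is the darkest line in NemoDK_Ercc1 1 and Ercc1 2 (54 and 57 counts), and no WT cell holds more than 7 counts.

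Of the 348 genes, 197 had no count in any library, 135 had 1 to 19 and 16 had at least 20. Each of the 16 had its highest count in a mutant library: 7 in Ercc1 library 2, 5 in NemoDK_Ercc1 library 2, 4 in NemoDK_Ercc1 library 1 and 0 in Ercc1 library 1. No WT library held more than 7 counts of any member. The selection by summed counts favors segments high in some liver, so nothing is read from these numbers. In 3 members a single library held most of the counts. They were Igkv8-28 (82.6%, in NemoDK_Ercc1 library 2), Igkv4-57 (65.5%, in NemoDK_Ercc1 library 2) and Ighv8-8 (62.5%, in Ercc1 library 2). At the threshold, Igkv15-103 and Igkv5-39 entered with 20 counts, while Ighv1-72, Igkv12-46 and Igkv8-24 had 19 and were left out.

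Igkv1-110 had the most counts of any variable segment in 4 of the 8 livers and shared the first place in 1. It had 54 and 18 counts in NemoDK_Ercc1, 14 and 57 in Ercc1, and 4, 5, 7 and 7 in WT. Both mutant groups lay above all 4 WT livers, with a wide gap between the 2 mice of each mutant group. Its mean level was 1.27 ± 0.72 CPM in NemoDK_Ercc1 (SD, n = 2), 1.22 ± 1.0 CPM in Ercc1 (SD, n = 2) and 0.255 ± 0.047 CPM in WT (SD, n = 4). edgeR's quasi-likelihood test gave a log2 fold change of 2.30 ± 0.58 for NemoDK_Ercc1 against WT (adjusted p = 0.0294, Benjamini-Hochberg over 15598 genes) and 2.24 ± 0.59 for Ercc1 against WT (adjusted p = 0.0289).

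Igkv1-110 passed the filter on low counts through mutant libraries alone, so its p-values against WT are descriptions. Both calls sat near the threshold. For NemoDK_Ercc1 the adjusted p from edgeR was 0.0627 without WT library 1, 0.0546 without WT library 2, 0.0631 without WT library 4, 0.285 without NemoDK_Ercc1 library 1 and 0.0573 without NemoDK_Ercc1 library 2. For Ercc1 it was 0.0589, 0.0568 and 0.0607 without WT library 1, 2 and 4. It was 0.329 without Ercc1 library 2, where the fold change was 0.98. Without WT library 3 both calls held. With age as a covariate the Ercc1 fold change was 4.16 (adjusted p = 0.213) in a design where the Ercc1 mice are the oldest, and 41 of the 15598 genes passed in that fit, against 3243 without age.

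Igkv1-117, the near copy of Igkv1-110, had 8 and 33 counts in NemoDK_Ercc1, 1 and 21 in Ercc1, and 0, 1, 1 and 4 in WT. It led all segments in NemoDK_Ercc1 library 2, where Igkv1-110 had 18 counts, and it trailed Igkv1-110 in every other library. The log2 fold change was 3.52 ± 1.14 for NemoDK_Ercc1 against WT (adjusted p = 0.0644) and 2.43 ± 1.23 for Ercc1 against WT (adjusted p = 0.193). Neither passed, and without Ercc1 library 2 the second was -0.77. Igkv1-135, the third of the family, had 12 and 2 counts in NemoDK_Ercc1, 1 and 10 in Ercc1, and 3, 0, 1 and 7 in WT, and all groups overlapped.

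Igkv6-23 had 8 and 13 counts in NemoDK_Ercc1, 1 and 14 in Ercc1, and 0 in all 4 WT livers. With WT set at 3 counts over the group (0.0336 CPM), it was at least 11.6-fold higher in NemoDK_Ercc1 and at least 7.87-fold higher in Ercc1. The adjusted p from edgeR was 0.0537 for NemoDK_Ercc1 against WT and 0.0734 for Ercc1 against WT, so neither passed. Igkv6-15, at 94.6% identity, had 12 and 3 counts in NemoDK_Ercc1, 1 and 7 in Ercc1, and 2, 2, 2 and 7 in WT, with overlap between all groups.

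Igkv10-96 had 10 and 14 counts in NemoDK_Ercc1, 6 and 12 in Ercc1, and 4, 0, 1 and 0 in WT. Every mutant liver lay above every WT liver, with log2 fold changes of 2.90 ± 0.91 in NemoDK_Ercc1 (adjusted p = 0.0595) and 2.38 ± 0.95 in Ercc1 (adjusted p = 0.108) that did not pass. Without WT library 1, which held 4 of the 5 WT counts, the adjusted p was 0.0208 for NemoDK_Ercc1 and 0.0289 for Ercc1.

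The other 6 kappa members, like Igkv1-135 and Igkv6-15, had too few counts for the edgeR filter. Igkv4-57 had 0 and 19 counts in NemoDK_Ercc1, 0 and 7 in Ercc1, and 3, 0, 0 and 0 in WT. Igkv8-28 had 0 and 19 counts in NemoDK_Ercc1, 1 and 0 in Ercc1, and 1, 0, 0 and 2 in WT. In both, 19 of the counts came from NemoDK_Ercc1 library 2, and the other NemoDK_Ercc1 liver held none.

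Igkv14-111 had 11 and 5 counts in NemoDK_Ercc1, 1 and 7 in Ercc1, and 1, 0, 1 and 3 in WT. Igkv5-43 had 6 and 4 counts in NemoDK_Ercc1, 1 and 9 in Ercc1, and 1, 0, 1 and 3 in WT. In both, NemoDK_Ercc1 lay above WT and Ercc1 overlapped it. The ratio of summed counts per library size for NemoDK_Ercc1 against WT was 5.29 for Igkv14-111 (95% counting interval 1.85 to 18.5) and 3.31 for Igkv5-43 (1.03 to 12.3). Igkv5-39 had 8 and 7 counts in NemoDK_Ercc1, 0 and 2 in Ercc1, and 0, 0, 0 and 3 in WT, and was the member whose NemoDK_Ercc1 livers lay above both other groups. Igkv15-103 had 7 and 2 counts in NemoDK_Ercc1, 0 and 8 in Ercc1, and 3, 0, 0 and 0 in WT, with overlap throughout.

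Among heavy chain members, Ighv1-81 had 15 and 23 counts in NemoDK_Ercc1, 2 and 16 in Ercc1, and 1, 2, 0 and 2 in WT. NemoDK_Ercc1 lay above WT without overlap, and Ercc1 library 1 lay within the WT range. Its mean level was 0.733 ± 0.340 CPM in NemoDK_Ercc1 (SD, n = 2), 0.308 ± 0.332 CPM in Ercc1 (SD, n = 2) and 0.0566 ± 0.0433 CPM in WT (SD, n = 4). The log2 fold change was 3.58 ± 0.87 for NemoDK_Ercc1 against WT (adjusted p = 0.0246), which passed, and 2.38 ± 0.96 for Ercc1 against WT (adjusted p = 0.111), which did not. Ighv1-81 too passed the filter on low counts through mutant libraries alone, so its p-values against WT are descriptions. The difference between the mutants, tested directly with edgeR, was 1.20 ± 0.82 (adjusted p = 0.814). The NemoDK_Ercc1 call was lost when any of 4 libraries was left out. The adjusted p from edgeR was then 0.0534 (WT library 1), 0.0514 (WT library 4), 0.0834 (NemoDK_Ercc1 library 1) and 0.181 (NemoDK_Ercc1 library 2), with fold changes of 3.03 to 4.0.

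Ighv8-8 had more counts in Ercc1 than in NemoDK_Ercc1 livers. It had 1 and 1 counts in NemoDK_Ercc1, 7 and 15 in Ercc1, and 0 in all WT livers, so it was at least 11.5-fold higher in Ercc1 than in WT on the same floor. It was the member whose NemoDK_Ercc1 livers lay below both Ercc1 livers. Ighv9-3 had 5 and 5 counts in NemoDK_Ercc1, 1 and 13 in Ercc1, and 0, 0, 3 and 0 in WT. Both NemoDK_Ercc1 livers lay above WT, and Ercc1 overlapped it.

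Iglv1, the lambda member, had 5 and 12 counts in NemoDK_Ercc1, 4 and 12 in Ercc1, and 2, 2, 3 and 0 in WT. All mutant livers lay above all WT livers, but the fold changes of 1.98 ± 0.87 in NemoDK_Ercc1 (adjusted p = 0.148) and 1.76 ± 0.88 in Ercc1 (adjusted p = 0.190) did not pass.

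**Figure D3:**
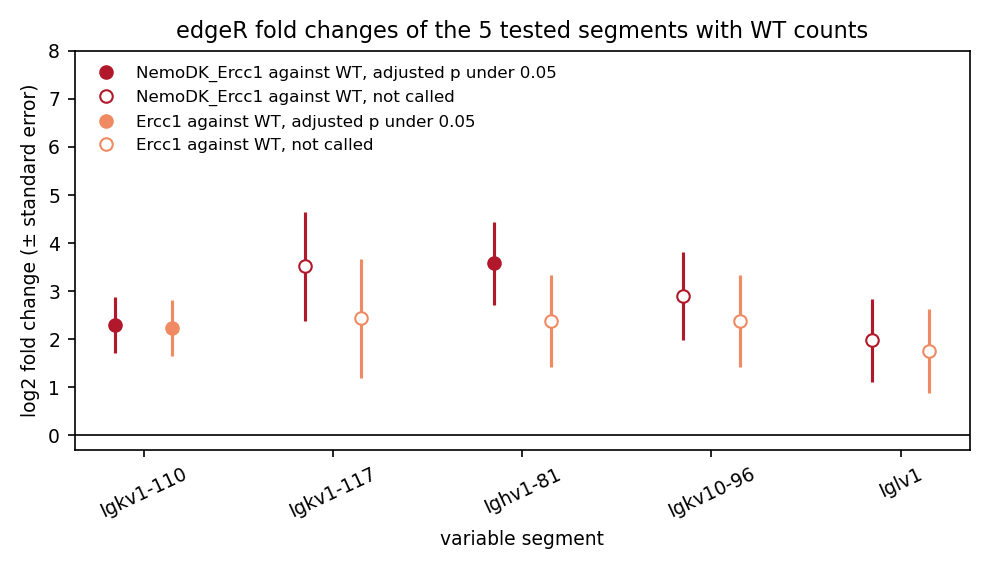
Points give edgeR log2 fold changes against WT with bars of 1 standard error for the 5 tested segments that had WT counts, and filled points passed an adjusted p of 0.05. Igkv1-110 is filled in both comparisons (2.30 and 2.24) and Ighv1-81 in NemoDK_Ercc1 (3.58). All 5 passed the filter on low counts through mutant libraries alone, so filled points are descriptions.

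Counted over the members, 6 of 16 passed the filter on low counts. No WT library held more than 7 counts of any member, so those 6 passed through mutant libraries and had to differ from WT. Their single tests against WT, counts and medians are descriptions. In NemoDK_Ercc1 against WT 2 were higher and 0 lower, where 10.6% of all tested genes were higher and 7.4% lower (18% in either direction). At an unadjusted p under 0.05 there were 5, against 34% of all tested genes. In Ercc1 against WT 1 was higher and 0 lower, where 11.3% of all tested genes were higher and 9.5% lower (20.8% in either direction). At an unadjusted p under 0.05 there were 4, against 35.6% of all tested genes. The median log2 fold change of the 6 was 3.21 in NemoDK_Ercc1 and 2.38 in Ercc1, also with Igkv6-23 at its bound, beside 0.0034 and -0.0010 over all tested genes. Both comparisons use the same 4 WT livers.

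By ranks of CPM over all 16 members, both NemoDK_Ercc1 livers lay above all WT livers in 11 and below them in 0, while over the 17601 genes with at least 20 counts 24% lay above and 20.3% below. Both Ercc1 livers lay above all WT livers in 5 and below in 0, while over those genes 20.6% lay above and 19.8% below. The selection by summed counts favors segments high in some liver, so nothing is read from these shares.

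No tested member passed between the mutant groups. In NemoDK_Ercc1 against Ercc1, edgeR called 0 of the 6 tested members, with 0 at an unadjusted p under 0.05, and called 0% of all 15598 genes in either direction, with 1062 (6.81%) at an unadjusted p under 0.05. Limma-voom gave all 6 an adjusted p and called 0, and DESeq2 gave 3 of them one and called 0. Over all genes DESeq2 called 69 and limma-voom 0. The 6 fold changes were 0.06 to 1.20, with a median of 0.56 beside 0.02 over all tested genes. By CPM ranks 1 member was above (Igkv5-39) and 1 below (Ighv8-8), while 22.8% of genes with at least 20 counts lay above and 19.1% below. The standard errors of the 6 fold changes were 0.61 to 1.08, with 2 mice in each group.

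More segments were seen in mutant livers, which also held more counts. The number of the 348 genes with at least 1 count was 68 and 78 in NemoDK_Ercc1, 50 and 87 in Ercc1, and 42, 31, 31 and 35 in WT. Thinned to 48 counts, the smallest library total, the expected number was 28.6 and 28.5 in NemoDK_Ercc1, 30.5 and 31.0 in Ercc1, and 32.1, 31.0, 31.0 and 26.4 in WT. At equal counts the mutant livers lay within the WT range, so the larger numbers in the mutants went with the larger number of counts. Of the 16 members, 14 and 16 were seen in NemoDK_Ercc1, 13 and 15 in Ercc1, and 11, 5, 9 and 9 in WT, and at 12 counts the numbers were 6.98 and 7.51, 6.43 and 7.47, and 7.91, 5, 6.75 and 6.79 in the same order of groups. Pooled over mice, all 16 members were seen in NemoDK_Ercc1 and in Ercc1 and 14 in WT, where Igkv6-23 and Ighv8-8 were at 0.

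**Figure D4:**
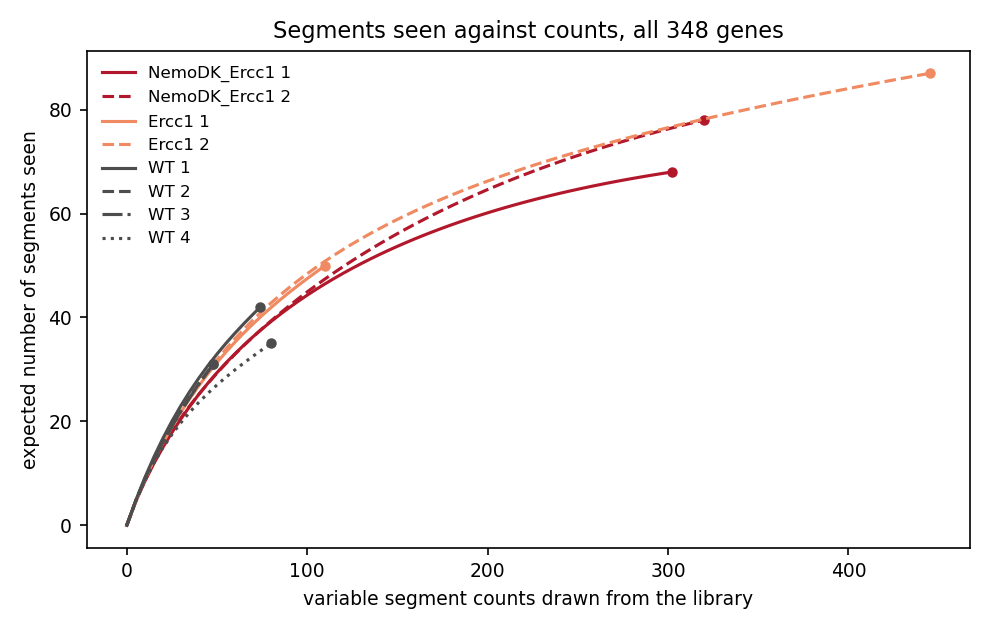
Lines give the number of variable segments expected (vertical) when a given number of variable segment counts is drawn from a library (horizontal), and points mark the whole library. At 70 counts the curve of WT library 1 is at 40.6 and that of WT library 4 at 32.6, with every mutant liver between them. The libraries also differ in how far right they extend, up to 445 counts.

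The leading segments took overlapping shares of the variable segment counts in all groups. Counts were not equalized for these shares, which rest on 48 to 80 counts in WT and 110 to 445 in the mutants. They do not compare the groups at equal depth. The 5 highest of the 348 genes held 34.4% and 35.0% of variable segment counts in NemoDK_Ercc1, 31.8% and 27.6% in Ercc1, and 27.0%, 35.4%, 37.5% and 37.5% in WT. The single highest held 17.9% (Igkv1-110, 95% Clopper-Pearson interval 13.7% to 22.7%) and 10.3% (Igkv1-117, 7.21% to 14.2%) in NemoDK_Ercc1. In Ercc1 it was Igkv1-110 in both livers, at 12.7% (7.14% to 20.4%) and 12.8% (9.85% to 16.3%). In WT it was Igkv4-91 at 6.76%, Igkv9-124 at 12.5%, Igkv1-110 at 14.6%, and a tie of Igkv1-110, Igkv1-135 and Igkv6-15 at 8.75%, each on 5 to 7 counts. No liver had a segment with more than 17.9% of its variable segment counts.

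Within the members the 5 highest held 64.2% and 62.2% in NemoDK_Ercc1, 80.5% and 58.6% in Ercc1, and 68.0%, 100%, 80.0% and 73.7% in WT. WT library 2 had 12 member counts on 5 members, so its share had to be 100%. The 3 libraries with the most member counts had the 3 lowest shares, and counts were not equalized for this measure.

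The constant region genes, to which the joined segments are spliced, were read beside the variable segments. Whether all their counts come from transcripts with a variable segment was not tested. The 12 listed genes summed to 51.2 and 63.0 CPM in NemoDK_Ercc1, 24.9 and 68.2 CPM in Ercc1, and 27.9, 18.3, 17.2 and 22.8 CPM in WT. Ercc1 library 1 lay in the WT range and the other 3 mutant livers above it. Over all tested genes 10.6% were higher and 7.4% lower in NemoDK_Ercc1 against WT, and 11.3% and 9.5% in Ercc1. Of 11 tested constant region genes, 8 were higher and 0 lower in each mutant group against WT. In NemoDK_Ercc1 the count was 3 without NemoDK_Ercc1 library 1, 1 without NemoDK_Ercc1 library 2, 5 without WT library 2 or 4, and 6 to 8 without any other library. In Ercc1 it was 1 without Ercc1 library 2, 4 without WT library 2, 5 without WT library 4 or either NemoDK_Ercc1 library, and 6 or 7 otherwise. Igkc, the kappa constant region, rose by 2.04 ± 0.37 in NemoDK_Ercc1 (adjusted p = 0.00867) and 1.66 ± 0.38 in Ercc1 (adjusted p = 0.0170). Igha, the constant region of IgA, rose by 2.19 ± 0.46 and 1.86 ± 0.46 (adjusted p = 0.0147 and 0.0246). Ighm, that of IgM, was at -0.02 ± 0.38 and -0.22 ± 0.38 (adjusted p = 0.972 and 0.715).

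The ratio of kappa variable to kappa constant counts overlapped between groups. Per 100 Igkc counts there were 51.5 and 39.3 Igkv counts in NemoDK_Ercc1, 31.3 and 46.7 in Ercc1, and 48.5, 53.0, 36.9 and 33.9 in WT. At the heavy chain locus, Ighv counts per 100 counts of the 8 heavy constant genes were 5.13 and 10.5 in NemoDK_Ercc1, 7.75 and 10.5 in Ercc1, and 4.97, 3.56, 4.42 and 5.54 in WT. NemoDK_Ercc1 library 1 lay within the WT range and the other 3 mutant livers above it. The share of Ighm in heavy constant counts was 35.1% and 25.8% in NemoDK_Ercc1, 33.3% and 31.1% in Ercc1, and 71.9%, 75.8%, 67.0% and 56.1% in WT, with no overlap. The part of this difference in the heavy chain ratio was not tested.

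**Figure D5:**
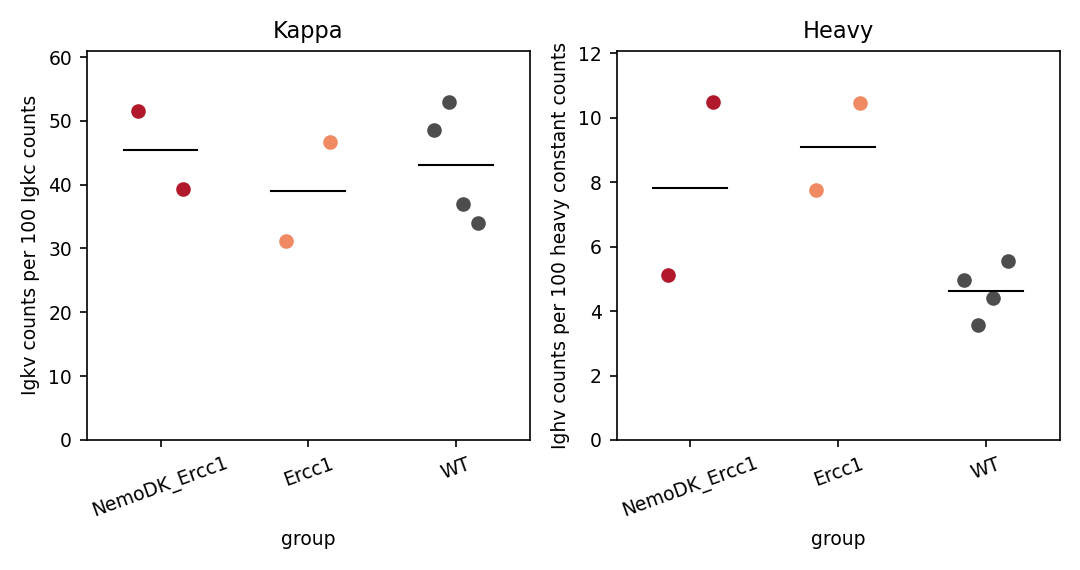
Points give, for each liver, Igkv counts per 100 Igkc counts (left) and Ighv counts per 100 counts of the heavy chain constant genes (right), with a line at the group mean. The kappa ratio overlaps in all groups (31.3 to 53.0), and the heavy ratio reaches 10.5 in 1 liver of each mutant group against 3.56 to 5.54 in WT.

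B cell identity genes split the livers as the variable segments did, with Ercc1 library 1 just above WT. The order of livers within NemoDK_Ercc1 and within WT differed between these genes and the variable segments. The 12 B cell identity genes summed to 26.5 and 19.7 CPM in NemoDK_Ercc1, 9.85 and 23.5 CPM in Ercc1, and 7.46, 9.06, 6.02 and 7.95 CPM in WT, and none was at 0 throughout. Of 11 tested, 8 were higher in NemoDK_Ercc1 (all tested genes 10.6%) and 3 in Ercc1 (all tested genes 11.3%), with 0 lower in either. Among them Cd79a, a signaling chain of the B cell receptor, was at 2.12 ± 0.42 in NemoDK_Ercc1 (adjusted p = 0.0115) and 1.12 ± 0.44 in Ercc1 (adjusted p = 0.102). Cr2, a complement receptor of B cells, rose by 2.27 ± 0.40 and 2.07 ± 0.41 (adjusted p = 0.00741 and 0.00955). The NemoDK_Ercc1 count was 3 without WT library 1, 3 or 4, 5 without WT library 2, 0 without NemoDK_Ercc1 library 1 and 1 without NemoDK_Ercc1 library 2. The Ercc1 count was 1 without Ercc1 library 2 or either NemoDK_Ercc1 library, 2 without WT library 4, and 3 or 4 otherwise. How much of the variable segment difference goes with the number of B cells was not tested.

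Plasma cell genes were mixed. Of 10 tested, 3 were higher and 0 lower in each mutant group, but 0 in NemoDK_Ercc1 without either NemoDK_Ercc1 library. The Ercc1 count was 0 without Ercc1 library 1, 1 without Ercc1 library 2, WT library 3 or 4 or either NemoDK_Ercc1 library, and 2 or 3 without the others. Prdm1, a regulator of plasma cell differentiation, rose by 1.95 ± 0.50 in NemoDK_Ercc1 and 1.78 ± 0.50 in Ercc1 (adjusted p = 0.0304 and 0.0380), and Tnfrsf13b, a receptor for B cell survival factors, rose by 1.95 ± 0.42 and 1.58 ± 0.43 (adjusted p = 0.0165 and 0.0335). Jchain, which joins IgM and IgA units, was at 1.55 ± 0.47 and 1.29 ± 0.48 (adjusted p = 0.0536 and 0.0875). The list summed to 558 to 567 CPM in NemoDK_Ercc1, 549 to 827 CPM in Ercc1 and 635 to 699 CPM in WT. That sum rests on Sdc1, Xbp1 and Ssr4, which hepatocytes also express. Xbp1 was at -0.50 ± 0.25 in NemoDK_Ercc1 and -0.24 ± 0.25 in Ercc1, and Derl3 at 0.37 ± 0.44 and -0.69 ± 0.48. Mzb1, too low to be tested, had 2 and 4 counts in NemoDK_Ercc1, 2 and 4 in Ercc1, and 8, 10, 2 and 8 in WT. Tnfrsf17 had 0 to 3 counts per library. Over all tested genes 10.6% were higher in NemoDK_Ercc1 and 11.3% in Ercc1.

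Of 4 tested genes of early B cell development and recombination, edgeR called 0 in each comparison, with 0 at an unadjusted p under 0.05 (1 was lower in NemoDK_Ercc1 without WT library 3), and Rag1, Rag2 and Vpreb2 were at 0 in all 8 livers. Among germinal center genes Rgs13 was at 0 in all livers. Of the 3 tested, 1 was higher in NemoDK_Ercc1 (all tested genes 10.6%) and 2 in Ercc1 (all tested genes 11.3%). Mybl1, a transcription factor that germinal center cells share with other tissues, rose by 3.40 ± 0.42 in NemoDK_Ercc1 and 4.26 ± 0.41 in Ercc1 (adjusted p = 0.00179 and 0.000564). S1pr2, a receptor of germinal center cells and other cell types, was at 0.19 ± 0.20 in NemoDK_Ercc1 (adjusted p = 0.547) and rose by 0.70 ± 0.19 in Ercc1 (adjusted p = 0.0355). Bcl6, the remaining tested gene, did not rise. It was at -1.17 ± 0.58 in NemoDK_Ercc1 (adjusted p = 0.191) and -0.0010 ± 0.54 in Ercc1 (adjusted p = 0.999). The Ercc1 count of the list was 1 without WT library 2 or 4, Ercc1 library 2 or either NemoDK_Ercc1 library.

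Among B cell attraction and survival factors, 4 of 8 tested were higher in NemoDK_Ercc1 and 0 lower: the receptors Cxcr5 (2.11 ± 0.53), Ccr7 (2.34 ± 0.41), Cxcr4 (1.98 ± 0.37) and Tnfrsf13c (2.59 ± 0.67), which B cells carry, some of them with other leukocytes. The higher count was 2 without WT library 1, 3 without WT library 4 and 0 without either NemoDK_Ercc1 library, and 1 was lower without WT library 3. In Ercc1 0 were higher (3 at an unadjusted p under 0.05, and 1 called without Ercc1 library 1) and 2 lower, namely the chemokines Cxcl13 (-1.38 ± 0.33) and Cxcl12 (-0.95 ± 0.21), made by stromal and other cells, and 0 were lower without either Ercc1 library. Cxcl13 and Cxcl12 were at -0.44 ± 0.31 and -0.64 ± 0.21 in NemoDK_Ercc1 (adjusted p = 0.346 and 0.0631). T cell markers summed to 14.7 and 17.0 CPM in NemoDK_Ercc1, 8.02 and 12.5 CPM in Ercc1, and 6.33 to 8.96 CPM in WT, with 4 of 10 higher in NemoDK_Ercc1 (0 to 2 when any library but WT library 2 was left out) and 0 in Ercc1 (3 at an unadjusted p under 0.05, and 1 called without WT library 1). Macrophage and Kupffer cell markers summed to 476 and 490 CPM in NemoDK_Ercc1, 317 and 503 CPM in Ercc1 and 201 to 433 CPM in WT, with 2 of 8 higher in each mutant group (Cd68 and Marco), with other counts when 1 library was left out. In NemoDK_Ercc1 the macrophage count was 0 without either NemoDK_Ercc1 library and 5 without WT library 2. In Ercc1 it was 0 without Ercc1 library 2, 4 without WT library 2, and 1 without Ercc1 library 1, WT library 4 or either NemoDK_Ercc1 library. Hepatocyte markers had 3 of 7 lower in each mutant group. That count was 1 in NemoDK_Ercc1 without either NemoDK_Ercc1 library, 1 in Ercc1 without Ercc1 library 1, 5 in Ercc1 without WT library 2, and 2 or 3 otherwise. Over all tested genes 10.6% were higher and 7.4% lower in NemoDK_Ercc1, and 11.3% and 9.5% in Ercc1. The part of the listed cell types in the variable segment levels was not tested.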

How the data were processed

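Liver RNA of 8 mice was sequenced after TRIzol extraction with a stranded total RNA kit, per the labels' protocols. The deposited values are raw counts per gene, made by the authors with FastQC, HISAT2 2.1.0 and featureCounts on GRCm38, per the submitters' processing notes. The annotation release, strand setting, read length and handling of multi-mapping reads are not given in the sources used here.

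The main tool was edgeR 4.0.16 under R 4.3.3, with DESeq2 1.42.0 and limma 3.58.1 (voom) as alternatives. filterByExpr on the 3 groups left 15598 genes. TMM factors and 1 quasi-likelihood model with a mean per group (5 residual and 3.67 prior degrees of freedom) gave 3 contrasts, with Benjamini-Hochberg adjusted p under 0.05 called. A standard error is the size of the fitted log2 change over the root of its F statistic. P-values measure the spread between mice. Members and marker lists were chosen with earlier results of these data known. Segments named were the leaders of each locus and library, the lambda member, the called ones and those next to the 20-count minimum; all 16 are given.

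Thinning used the hypergeometric expectation. Intervals are Clopper-Pearson at 95%. Where a group had 0 counts, it was set at 3 counts over the group. Python 3.11.15 with Biopython 1.88 compared transcript sequences; identifiers of all 348 genes matched GENCODE M21. Alternatives were other scaling factors, filters, tools, age as a covariate, all 348 genes or other minimums, and each library left out, which was added for the marker lists after seeing the data. A library alone in its group was assumed to vary like the other groups. Library totals were 21.6 to 27.8 M.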

Additional observations from a re-analysis of the deposited data

Results flagged for a closer look

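In 5 of 30 measures checked over the 4 WT livers, 1 liver stood apart from the other 3 (past Dixon's 95% limit for the gap over the range), where chance gives about 1 in 20 for continuous values. That rate does not hold for 4 of the 5, since with the other 3 livers at 0 the gap is the whole range at any count. Igkv6-15 was at 0.270 CPM in WT library 4 and at 0.0873 to 0.101 CPM in the others. Igkv4-57 and Igkv15-103 were both at 0.145 CPM in WT library 1, Ighv9-3 was at 0.131 CPM in WT library 3, and Igkv5-39 was at 0.116 CPM in WT library 4, with 0 in each other WT liver. These 4 levels rest on 3 counts each.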

How the results depend on the processing

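Some results depended on which genes, libraries and tools were used. With all 348 genes the log2 ratio of summed CPM for NemoDK_Ercc1 against WT was 2.07 (2.64 with the 16 members). Leaving out 1 library gave 2.36 to 2.88 there, 0.53 to 2.78 for Ercc1 against WT, and -0.14 to 2.11 for NemoDK_Ercc1 against Ercc1. The difference in members seen at equal depth was 0.63 for NemoDK_Ercc1 against WT, 0.34 for Ercc1 against WT and 0.29 for NemoDK_Ercc1 against Ercc1. With a minimum of 10 counts at each library's own depth these were 7, 5 and 2, and with all genes -1.57 (NemoDK_Ercc1 against WT) and -2.18 (NemoDK_Ercc1 against Ercc1). Leaving out 1 library gave 0.09 to 1.06, -0.20 to 0.85 and -0.22 to 0.81 in that order. The top 5 share differed by -17.2 points for NemoDK_Ercc1 against WT, -10.9 for Ercc1 against WT and -6.32 for NemoDK_Ercc1 against Ercc1. With all genes the first was 0.36 and the third 4.99, and with the top segment alone the first was -1.94. Leaving out 1 library gave -21.4 to -10.7, -21.8 to 0.07 and -17.3 to 4.64.

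Members called higher in NemoDK_Ercc1 against WT were 2, but 5 with library size alone (which moved the median of all genes by 0.27), 5 with no filter, 1 at 1 CPM in 2 libraries (1 member tested), 4 with DESeq2, 4 with age as a covariate and 0 to 4 leaving out 1 library. In Ercc1 against WT they were 1, but 3 with no filter, 2 with DESeq2, 0 with limma-voom, 0 with age as a covariate and 0 to 2 leaving out 1 library. Over all genes edgeR called 2800 in NemoDK_Ercc1, against 3998 with library size alone, 3267 of 25609 with no filter, 2626 of 13762 at 1 CPM, 3504 with DESeq2 and 2642 with age. In Ercc1 it called 3243, against 3678 of 25609 with no filter, 3894 with DESeq2, 3353 with limma-voom and 41 with age. With limma-voom the adjusted p of Igkv1-110 was 0.0580 in NemoDK_Ercc1 and 0.0825 in Ercc1. The Igkv1-117 fold change for Ercc1 against WT reversed to -0.77 without Ercc1 library 2, in a range of -0.77 to 3.40 with 1 library left out. Igkv6-23 passed in NemoDK_Ercc1 in 8 of 16 alternatives. No member was called between the mutants or lower in any alternative, where DESeq2 gave 3 of 6 members an adjusted p between the mutants. The cause of these changes was not tested.

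A minimum of 100 counts left Igkv1-110 alone, so the number seen and the top share had no value there. No paired analysis was possible because the library numbers in the labels differ between groups and pair no mice. Counts of single members, at most 57 in a library, limit what a comparison of single segments can show.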
